A study of Rattus norvegicus with 12 samples.

Results

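The genes described here encode the proteins of the cytosolic ribosome. They were taken by name, as the genes whose symbol is Rps or Rpl followed by a number and at most 1 letter, Rplp followed by a number, or Rpsa, which gave 81 of the 22601 genes in the table. Of these, 32 encode proteins of the small subunit and 49 encode proteins of the large subunit, the P stalk included. The tissue of a critical size defect in the distal femur of 8-week-old Sprague Dawley rats was sequenced 2 weeks after the operation, with 3 libraries in each of 4 groups: the hydrogel group (a printed gelatin methacryloyl scaffold), the PCL group (a scaffold of a slowly degrading polyester), the β-TCP group (a scaffold of a resorbable calcium phosphate ceramic) and the control group, whose drilled defect received no scaffold. The drilled defect was shared by all groups, controls included. The libraries hold newly formed tissue of mixed cell types, not sorted cells. The paper states that its statistical analyses had at least 3 independent samples per group, without naming the rats behind each library. Whether libraries stem from different animals is thus not stated, and p-values cover the spread among these libraries, which may be technical. Values are FPKM, fragments scaled for gene length and library depth, and the 3 values of a group follow replicates 1 to 3.

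The cytosolic ribosome joins amino acids into protein. Its small subunit reads the messenger RNA, its large subunit forms the peptide bond, and the P stalk of the large subunit recruits the elongation factors. The genes of its proteins are active in all growing cells, and their messenger RNAs typically begin with a run of pyrimidines, the terminal oligopyrimidine tract, through which the mTOR pathway sets their translation. The values here are levels of messenger RNA, not of translation or protein. Defective ribosomal protein genes impair red cell formation in Diamond-Blackfan anemia, and several of these proteins bind Mdm2 when ribosome assembly is disturbed. Marrow and healing bone hold many red cell precursors, lymphocytes and matrix-secreting cells, which differ in how much ribosomal protein RNA they carry, and in bulk tissue fewer cells of a type and less RNA per cell cannot be told apart.

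The depth in the FPKM formula was 15036447 to 17358370 fragments per library, and the ribosomal protein genes took 431551 to 669827 of them. Control replicate 3 stood apart from the other 11 libraries, with 0.953% of its FPKM in 10 hemoglobin genes, against 3.02% to 23.3% in the others, and β-TCP replicates 2 and 3 were close to each other. The tissue label was bone, and all 9 osteoblast markers passed 1 FPKM in at least 3 libraries, with summed levels of 6290 to 15500 FPKM with hydrogel, 10500 to 15300 with PCL, 17300 to 20100 with β-TCP and 14600 to 26100 in controls. Of 16 erythroid markers 15 passed the same level, and their summed FPKM ran from 42700 to 87700 with hydrogel, from 47200 to 139000 with PCL, from 14400 to 31800 with β-TCP and from 3880 to 62800 in controls. The 10 markers of dividing cells summed to 431 to 865, 441 to 721, 145 to 276 and 85.8 to 606 FPKM in the same order of groups, and 9 chondrocyte markers, 8 of which passed that level, to 132 to 671, 82.3 to 290, 128 to 786 and 1910 to 12100 FPKM. No marker of these lists was at 0 in all libraries. The lowest erythroid and dividing sums and the highest chondrocyte sum were all in control replicate 3, and their part in the results below was not tested.

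Ribosomal protein genes were among the most abundant genes of the tissue in all 12 libraries. By mean FPKM over the libraries, 49 of the 100 highest genes were ribosomal protein genes, as were 19 of the highest 50. A total of 14 had a mean of at least 1000 FPKM, 39 lay between 500 and 1000, 18 between 100 and 500, and 10 below 100. The highest was Rpl41, a very short basic protein of the large subunit, with a mean of 1617 FPKM. Also among the highest were Rps29 (1509 FPKM), a zinc-binding protein of the small subunit, Rplp0 (1244 FPKM), the base of the P stalk, and Rpl31 (1151 FPKM), which lies near the exit of the peptide tunnel.

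The summed FPKM of the 81 genes was higher in each scaffold group than in controls. It was 55882, 57786 and 60911 with hydrogel, 55465, 53028 and 60702 with PCL, 54667, 51706 and 51952 with β-TCP, and 47544, 48868 and 39826 in controls. All 9 scaffold libraries lay above the 3 control libraries, and control replicate 3 was the lowest of the 12. As a share of each library's total FPKM, the genes held 11.8% ± 0.534 with hydrogel, 10.96% ± 0.636 with PCL, 11.49% ± 0.294 with β-TCP and 10.47% ± 0.303 in controls (SD, n = 3 each). On this scale, PCL replicates 2 and 3 (10.53% and 10.66%) fell within the control range of 10.15% to 10.75%, whereas the hydrogel and β-TCP libraries stayed above it. With the 10 hemoglobin genes left out of the total, the shares were 13.7% ± 0.497 with hydrogel, 13.08% ± 0.767 with PCL, 12.02% ± 0.567 with β-TCP and 11.34% ± 0.975 in controls, and β-TCP replicates 2 and 3 (11.66% and 11.72%) then fell within the control range. The plot of summed levels shows these 3 scales. Whether the PCL and β-TCP libraries lay apart from the control libraries thus depended on the total used, and no test was run on these sums.

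**Figure D1:**
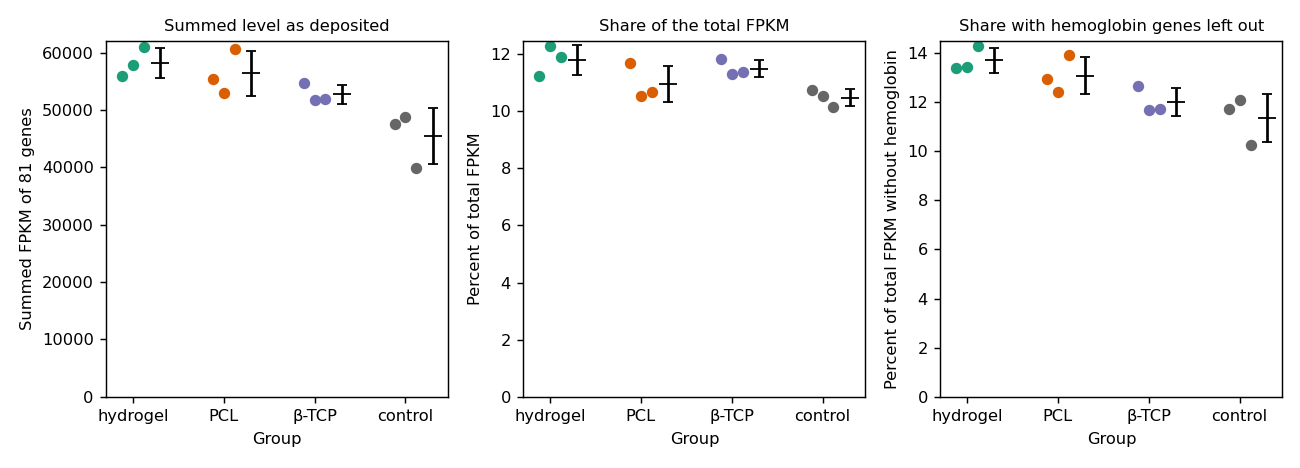
Summed level of the 81 ribosomal protein genes in each library (points) by group, as FPKM, as percent of the library's total FPKM and as percent of that total without 10 hemoglobin genes; black marks are the mean ± SD of 3 libraries, and all axes start at 0. The 9 scaffold libraries lie above the 3 control libraries in the first panel, whereas PCL libraries overlap the control range in the second and β-TCP libraries in the third.

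Gene by gene, the change was small and shared by nearly all of the family. After the filter of at least 1 FPKM in at least 3 libraries, 79 of the 81 genes were tested with limma on log2(FPKM + 1), and Rps9 and Rpl8 were left out. In the hydrogel group against the control group 77 of the 79 had a positive log2 fold change, with a median of 0.35 (quartiles 0.29 and 0.41), where all 12633 genes tested had a median of 0.14. In the PCL group the median was 0.31 with 75 positive (all genes 0.04), and with β-TCP it was 0.23 with 75 positive (all genes 0.03). Without control replicate 3 the medians were 0.26 with hydrogel, 0.22 with PCL and 0.13 with β-TCP. These 3 comparisons share the control libraries. At an unadjusted p under 0.05, 68 of the 79 genes were higher and none lower with hydrogel, where 8.62% of all genes were higher and 6.37% lower. With PCL 62 were higher and 1 lower (all genes 11.1% and 7.34%), and with β-TCP 31 were higher and none lower (all genes 14.7% and 3.25%). These counts of higher genes were 47 with hydrogel, 36 with PCL and 16 with β-TCP when control replicate 3 was left out. The PCL count was 32 when PCL replicate 3 was left out, and the β-TCP count 20, 19 or 19 when β-TCP replicate 1, 2 or 3 was. For fits with a library left out, here and below, no share over all genes is given, so these counts have no background beside them. The 3 scaffold libraries did not overlap the 3 control libraries, and were higher, for 67 genes with hydrogel (9.15% of all genes), 65 with PCL (10.3%) and 42 with β-TCP (17.9%).

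Few of these differences passed the adjustment over all genes. At an adjusted p under 0.05 (limma, Benjamini-Hochberg), none of the 79 genes was called with hydrogel (0.00792% of all genes) or with PCL (0.277%), and 2 were called with β-TCP (4.78%). These were Rpl41 and Rpl39, both short proteins of the large subunit and both higher than in controls. Under the combined threshold of the paper (unadjusted p below 0.05, fold above 2 or below 0.5) no gene was called with hydrogel (2.29% of all genes) or with β-TCP (3.51%), and Rplp2 alone was called with PCL (3.64%). A test across the 4 groups together (limma, moderated F) called none at an adjusted p under 0.05 (2.98% of all genes) and 48 at an unadjusted p under 0.05 (27% of all genes). The calls with β-TCP rested on several libraries: 1 gene was called without control replicate 1, hydrogel replicate 1 or 2, PCL replicate 1 or 2 or β-TCP replicate 1, none when β-TCP replicate 2 or 3 or control replicate 2 was left out, 4 when PCL replicate 3 and 3 when control replicate 3 was left out. The count across the 4 groups was 5 without control replicate 3.

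**Figure D2:**
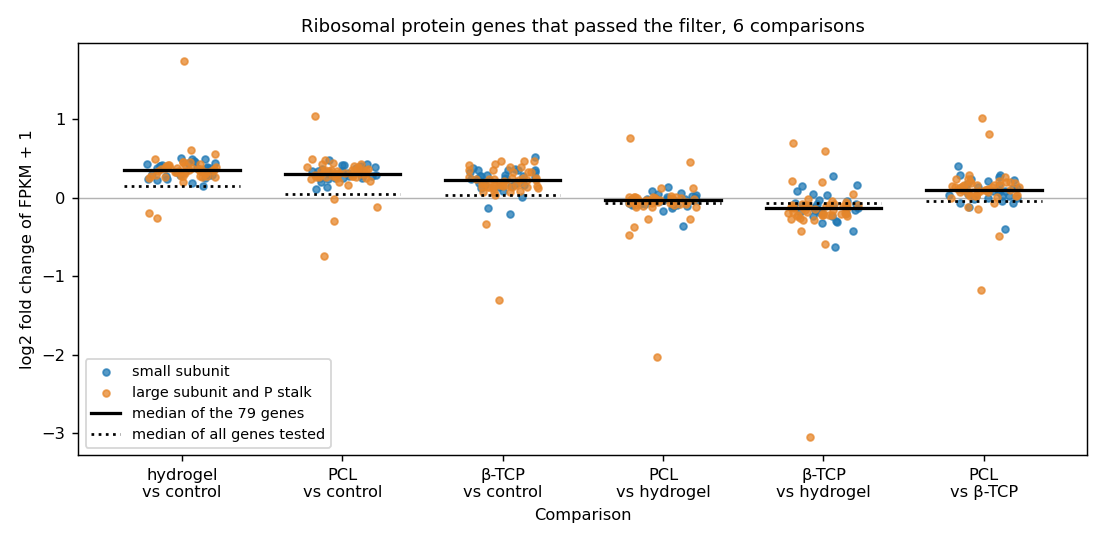
Log2 fold change of FPKM + 1 (vertical axis) of the 79 ribosomal protein genes tested, one point per gene, in 6 comparisons, with the median of these genes as a solid line and that of all 12633 genes tested as a dotted line. Nearly all genes lie in a narrow band above 0 in the 3 comparisons with the control group, with medians of 0.35, 0.31 and 0.23, and the points far from the band include Rpl3l, Rpl10l and Rplp2.

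The size of the change depended on how the libraries were scaled. Its excess over all genes moved little at equal totals and shrank under quantile normalization, most with β-TCP. With libraries scaled to equal total FPKM, chosen after the data were seen, the medians of the 79 genes against the control group were 0.16 with hydrogel, 0.055 with PCL and 0.15 with β-TCP, and the median of all genes moved by -0.16, -0.22 and -0.07. Under median-of-ratios scaling the median of all genes moved by -0.12 with hydrogel, under quantile normalization by -0.12 in that group, and with hemoglobin genes left out by 0.12 with PCL. Relative to the median of all genes, the 79 genes were higher by 0.21 with hydrogel, 0.26 with PCL and 0.20 with β-TCP as deposited, by 0.18, 0.23 and 0.19 at equal totals, and by 0.15, 0.11 and 0.04 under quantile normalization. The counts of genes higher and lower at an unadjusted p under 0.05 were 5 and 1 with PCL (9.28% and 9.5% of all genes) and 2 and 2 with β-TCP (12.4% and 5.73%) under quantile normalization, and 3 and 1 with PCL at equal totals (3.92% and 19.6%). With hemoglobin genes left out the counts were 6 and none with β-TCP (11.7% and 3.95%). The shares of the family that were higher were thus no larger than those of all genes in these cases.

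Between the scaffold groups the family differed less. In PCL against hydrogel the median was -0.03 (all genes -0.06), no gene was higher (2.89% of all genes) or lower (5.34%) at an unadjusted p under 0.05, and none was called at an adjusted p under 0.05 (0.103%) or at the combined threshold (0.768%). This median was -0.09 without PCL replicate 3, 0.0099 without PCL replicate 2 and -0.0017 without hydrogel replicate 3. It was 0.08 under median-of-ratios scaling, where the median of all genes was 0.03, and 0.0077 with hemoglobin genes left out, where that of all genes was -0.03, so that it lay above the median of all genes by 0.03 as deposited and by 0.05 and 0.04 under these scalings, whereas under quantile normalization it was -0.10 and differed from the median of all genes by -0.09. In β-TCP against hydrogel the median was -0.14 (all genes -0.06), with 1 gene higher (16.1% of all genes) and 6 lower (18.2%) at an unadjusted p under 0.05. The lower genes included Rpl3l, Rps10 and Rps16, and the higher gene was Rpl10l. None was called at an adjusted p under 0.05 (6.13%), although 10 were without control replicate 3 and 2 without control replicate 2, and Rpl3l was called at the combined threshold (8.38%). Under quantile normalization 20 were lower and 1 higher (all genes 18.8% and 18.7%), and with hemoglobin genes left out 20 and none (25.9% and 11%). The counts were 3 and 1 under median-of-ratios scaling (18.5% and 18.4%) and 3 and 2 at equal totals (14.3% and 17.5%). In PCL against β-TCP the median was 0.10 (all genes -0.04), 0.0466 without PCL replicate 3 and 0.15 without PCL replicate 2. At equal totals it was -0.06 with all genes at -0.18, and its excess over all genes was 0.11, beside 0.14 as deposited. Here 2 genes, Rps10 and Rps16, were higher (9.34% of all genes) and 2, Rpl10l and Rpl17, lower (13.1%) at an unadjusted p under 0.05, none was called at an adjusted p under 0.05 (0.657%; 3 without control replicate 3), and Rpl10l was called at the combined threshold (4.48%). Counts of higher and lower genes were 8 and 2 under median-of-ratios scaling (all genes 14.2% and 10.2%) and 3 and 2 under quantile normalization (11.8% and 13.1%). With hemoglobin genes left out they were 17 and 1 (15.4% and 5.83%), and at equal totals 1 and 5 (6.45% and 20.6%).

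Rpl41 was at 1586, 1651 and 1537 FPKM with hydrogel, 1738, 1658 and 1831 with PCL, 1822, 1829 and 1817 with β-TCP and 1356, 1237 and 1346 in controls. Every scaffold library lay above every control library, and the β-TCP libraries were within 12 FPKM of each other. Its log2 fold change was 0.47 with β-TCP (standard error 0.09, adjusted p = 0.0236, limma), 0.41 with PCL (adjusted p = 0.0986) and 0.28 with hydrogel (adjusted p = 0.312). Across the alternatives the β-TCP value ran from 0.18 to 0.50 and its adjusted p from 3.04e-06 to 0.472, with 15 of 27 under 0.05. Rpl39, which lines the peptide exit tunnel, was at 808, 864 and 899 FPKM with hydrogel, 852, 797 and 804 with PCL, 879, 906 and 875 with β-TCP and 701, 691 and 642 in controls. Its log2 fold change with β-TCP was 0.39 (standard error 0.09, adjusted p = 0.0398, limma; 9 of 27 alternatives under 0.05). For Rpl41 the lowest library was control replicate 2, whereas control replicate 3 was lowest for most of the family.

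Rpl37, a zinc-binding protein of the large subunit, was among the 3 genes with the largest positive change in all 3 comparisons with the control group. It was at 1033, 1007 and 1082 FPKM with hydrogel, 932, 891 and 1073 with PCL, 1011, 918 and 916 with β-TCP and 716, 754 and 588 in controls. No scaffold library overlapped a control library. Its log2 changes were 0.61 with hydrogel (standard error 0.12, adjusted p = 0.287), 0.50 with PCL (adjusted p = 0.115) and 0.47 with β-TCP (adjusted p = 0.0531, all from limma), and its sign was positive under all scalings run. Rpl36a, a large subunit protein, was at 243 to 287 FPKM with hydrogel, 249 to 293 with PCL, 240 to 254 with β-TCP and 169 to 211 in controls, and its log2 fold change with PCL was 0.49 (adjusted p = 0.102). The table pairs the symbol Rpl37 with an NCBI gene that RefSeq names Rpl37l1 in the assembly GRCr8, so the locus behind the name differs between annotations.

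Among the P stalk genes, Rplp0 and Rplp1 were as abundant as the rest of the family, whereas the level under the symbol Rplp2 was far lower. Rplp0, the anchor of the stalk, was at 1273, 1333 and 1323 FPKM with hydrogel, 1283, 1248 and 1406 with PCL, 1260, 1181 and 1186 with β-TCP and 1200, 1196 and 1043 in controls. The β-TCP range overlapped the control range, and the log2 changes against controls (hydrogel 0.19, PCL 0.20, β-TCP 0.08) did not pass an unadjusted p of 0.05. Rplp1, an acidic stalk protein, was at 1036, 1087 and 991 FPKM with hydrogel, 942, 962 and 1187 with PCL, 989, 923 and 935 with β-TCP and 785, 775 and 703 in controls. Its partner Rplp2 was at 10.98, 12.6 and 14.1 FPKM with hydrogel, 11.3, 18.6 and 48.7 with PCL, 12.7, 8.78 and 15.6 with β-TCP and 9.34, 12.8 and 8.74 in controls. The symbol Rplp2 held 61 to 346 fragments per library, and the only annotated copy of P2 averaged 0.0392 FPKM. Whether reads of P2 were counted elsewhere was not tested, so this low level does not show that the protein was scarce. The log2 fold change of Rplp2 with PCL, 1.04 (standard error 0.41, adjusted p = 0.240, limma), rested on PCL replicate 3. No gene of the family passed the combined threshold there without PCL replicate 3 or without control replicate 1. Rpsa, which doubles as a laminin receptor at the cell surface, was at 1033, 1028 and 1070 FPKM with hydrogel, 1004, 1000 and 1141 with PCL, 1071, 929 and 963 with β-TCP and 911, 913 and 807 in controls.

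Set against each other within a library, the ribosomal protein genes kept nearly fixed proportions. Among the 71 genes at 100 FPKM or more, the median SD over the 12 libraries was 0.185 on the log2 scale, and 0.0668 once each level was divided by the median of the family in the same library. Of the 71 genes, 59 had an SD under 0.1 on this relative scale. The family median was 729, 744 and 768 FPKM with hydrogel, 722, 665 and 789 with PCL, 696, 671 and 670 with β-TCP and 604, 631 and 507 in controls. Control replicate 3 was the lowest library for 67 of the 71 genes, and the highest was hydrogel replicate 3 for 33 and PCL replicate 3 for 32. Control replicate 3 also had the lowest total FPKM (392539) and the lowest median-of-ratios scaling factor (0.816) of the 12 libraries. The counts and SDs given here were not computed over all genes, so they do not set this family apart from other genes. The steadiest of the 71 was Rps29, with a relative SD of 0.0271, and Rpl31 had 0.0521. Rpl17 and Rpl30 were among the 3 genes that exceeded 0.2.

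**Figure D3:**
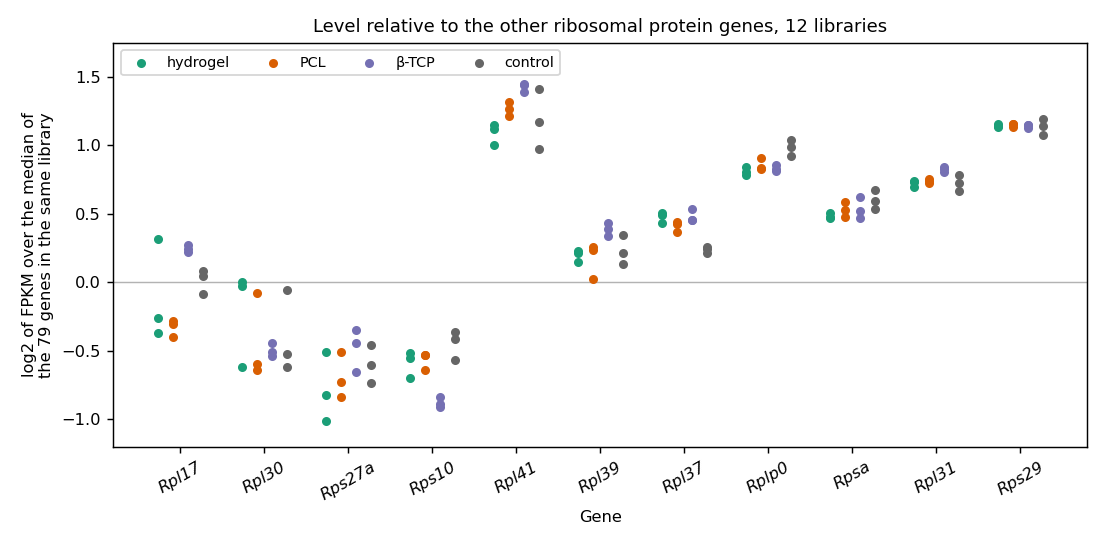
Level of 11 ribosomal protein genes relative to the family, as log2 of their FPKM over the median FPKM of the 79 genes in the same library (vertical axis), with 1 point per library and 4 groups per gene. Rps29 and Rpl31 stay nearly level, whereas Rpl17 and Rpl30 exceed an SD of 0.2 and Rps10 is lower in the β-TCP libraries than in the other 9.

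The sequence at the start sites of the ribosomal protein genes was read from RefSeq (GRCr8) for the 62 genes with an entry. The windows shown run from 60 bases before the start to 20 bases into the transcript on the strand of the gene, and capitals mark the longest run of a C followed by at least 4 pyrimidines that begins within 10 bases of the start. Shown first are 4 abundant genes whose run begins at the first transcribed base, then Rpl39, a called gene with a short run there, Rpl17, whose run begins 4 bases upstream of it, and last Rpl41, the other called gene, and Rpl10l, a testis paralog, which have no such run.
Rpl10: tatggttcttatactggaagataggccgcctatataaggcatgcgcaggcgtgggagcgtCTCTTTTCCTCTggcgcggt
Rpl31: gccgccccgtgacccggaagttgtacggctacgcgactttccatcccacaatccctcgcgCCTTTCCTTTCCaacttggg
Rplp1: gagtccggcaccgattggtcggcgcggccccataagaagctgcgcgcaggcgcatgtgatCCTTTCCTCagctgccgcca
Rps7: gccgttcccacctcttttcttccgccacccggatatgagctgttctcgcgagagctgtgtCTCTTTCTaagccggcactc
Rpl39: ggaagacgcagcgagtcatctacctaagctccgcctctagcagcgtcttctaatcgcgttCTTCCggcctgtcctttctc
Rpl17: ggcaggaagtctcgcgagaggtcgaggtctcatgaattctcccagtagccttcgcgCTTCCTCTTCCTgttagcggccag
Rpl41: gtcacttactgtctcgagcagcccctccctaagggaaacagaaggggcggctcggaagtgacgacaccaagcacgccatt
Rpl10l: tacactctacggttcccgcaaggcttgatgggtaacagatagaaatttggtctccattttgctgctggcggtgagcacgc
These windows are chrX:157205790-157205869 on the plus strand (Rpl10), chr9:49143051-49143130 plus (Rpl31), chr8:71290853-71290932 minus (Rplp1), chr6:50999426-50999505 minus (Rps7), chrX:121195877-121195956 minus (Rpl39), chr18:70856216-70856295 plus (Rpl17), chr7:1563478-1563557 minus (Rpl41) and chr6:90281963-90282042 minus (Rpl10l).

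A C followed by 4 pyrimidines lay exactly at the annotated start in 22 of the 62 genes (35.5%), against 2.63% of all 27457 promoters in the table. Within 10 bases on either side of the start it was found in 45 genes (72.6%), against 28.8%. Within the same distance, on the strand of the gene, CTTTCC was found in 13 genes (against 1.01% of all promoters) and CTTTTC in 7 (11.3% against 0.765%), and both are themselves pyrimidine runs of the first kind. Over the 300 bases of the promoter entry on both strands, CCGGAAG, a sequence bound by ETS factors, was present in 20 genes (32.3% against 9.22%) and AAGATGGC, a sequence bound by YY1, in 5 (8.06% against 3.44%). A match describes the letters of the window only. The annotated start can lie some bases from the start used in this tissue, and the build differs from the one named for the FPKM table.

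Rpl3l, which replaces Rpl3 in the ribosomes of heart and skeletal muscle, was ordered across libraries much as B cell markers were. It was at 19.3, 22.9 and 49.3 FPKM with hydrogel, 14.6, 2.72 and 5.23 with PCL, 5.86, 1.57 and 1.49 with β-TCP and 12.4, 32.8 and 0.459 in controls, and its fragments numbered from 10 in control replicate 3 to 990 in hydrogel replicate 3. The hydrogel libraries were above all PCL and β-TCP libraries, and the control libraries spread over nearly the whole range. The log2 fold change in β-TCP against hydrogel was -3.04 (standard error 0.99, adjusted p = 0.0780, limma), with an adjusted p of 0.000255 to 0.281 across the alternatives and under 0.05 without control replicate 2 or 3. In PCL against hydrogel it was -2.03 (adjusted p = 0.613), and against the control group it was 1.74 with hydrogel, -0.29 with PCL and -1.30 with β-TCP, with the PCL value of both signs among the alternatives. The hydrogel value was 0.45 without control replicate 3 and 2.71 without control replicate 2, and the β-TCP value was -2.59 without control replicate 3, where it passed an adjusted p of 0.05, and -0.33 without control replicate 2. The summed FPKM of 10 B cell markers, all of which passed 1 FPKM in at least 3 libraries, was 456, 459 and 854 with hydrogel, 405, 120 and 180 with PCL, 163, 64.3 and 64.5 with β-TCP and 308, 588 and 18.7 in controls. Rpl3l ordered 64 of the 66 pairs of libraries as this sum did, where the median over the 79 genes was 46 pairs and none had more than 64, and 38 of 66 as the sum of 10 skeletal muscle markers did. That comparison was chosen after the values were seen, and the part of B cells or muscle in the level of Rpl3l was not tested. That muscle sum was 45.4, 18.1 and 471 FPKM with hydrogel, 274, 14.9 and 230 with PCL, 16.7, 44.7 and 45.0 with β-TCP and 27.1, 20.5 and 34.8 in controls. Per 100 FPKM of B cell markers, Rpl3l was at 2.26 to 5.77 FPKM in the 12 libraries.

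**Figure D4:**
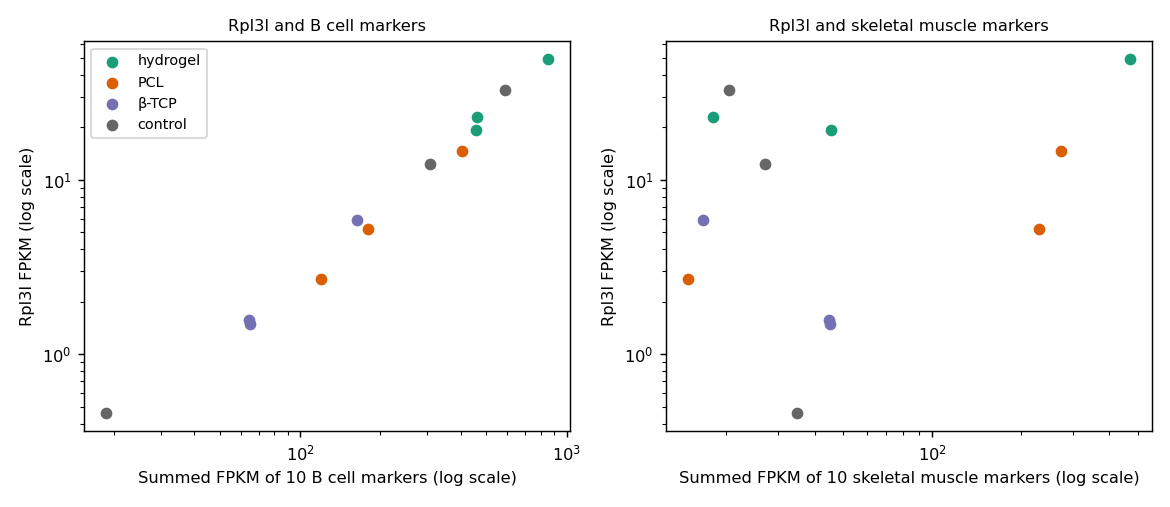
FPKM of Rpl3l (vertical axes, log scale) against the summed FPKM of 10 B cell markers (left) and of 10 skeletal muscle markers (right), both on log scales, 1 point per library in 4 groups. Libraries are ordered alike in 64 of 66 pairs on the left and in 38 of 66 on the right, and control replicate 3 is lowest and hydrogel replicate 3 highest in Rpl3l.

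The other tissue-restricted or divergent paralogs were scarce, and none passed an adjusted p of 0.05 in any comparison. Rpl10l, a testis paralog of Rpl10, was at 2.26, 1.29 and 1.09 FPKM with hydrogel, 1.78, 0.587 and 0.330 with PCL, 3.41, 2.46 and 3.36 with β-TCP and 2.51, 1.24 and 2.45 in controls, from 7 to 74 fragments. The PCL libraries were below the β-TCP libraries without overlap, by -1.17 on the log2 scale (standard error 0.29, adjusted p = 0.0927, limma), and against the control group the PCL value was -0.74 (adjusted p = 0.236). Rpl39l, a paralog of Rpl39 found in testis, was at 9.84, 6.50 and 1.83 FPKM with hydrogel, 8.48, 8.28 and 5.69 with PCL, 8.23, 7.64 and 9.05 with β-TCP and 5.68, 4.02 and 9.18 in controls, and all 4 groups overlapped. Rps27l, a p53-induced paralog of Rps27, was at 77.7 to 86.2 FPKM with hydrogel, 84.0 to 96.6 with PCL, 83.7 to 97.9 with β-TCP and 67.5 to 78.7 in controls, with log2 fold changes of 0.14, 0.28 and 0.29 against the control group. The hydrogel value turned negative when libraries were scaled to equal totals (-0.04) or to an equal family median (-0.22).

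Rpl30, a large subunit protein that also binds its own RNA, shared its signal with an annotated copy in 2 distinct ratios. It was at 474, 744 and 755 FPKM with hydrogel, 684, 440 and 506 with PCL, 489, 463 and 493 with β-TCP and 394, 440 and 486 in controls. The copy, named only ribosomal protein L30-like in the table (LOC100362027; Rpl30l2 in RefSeq), was at 248, 64.4 and 64.0 FPKM with hydrogel, 56.0, 245 and 272 with PCL, 278, 264 and 263 with β-TCP and 207, 228 and 43.3 in controls. The copy held 7.57% to 8.17% of the sum of both in hydrogel replicates 2 and 3, PCL replicate 1 and control replicate 3, and 34.1% to 36.3% in the other 8 libraries, with none in between. The sum was 783 ± 53.1 FPKM with hydrogel, 734 ± 46.2 with PCL, 750 ± 20.7 with β-TCP and 600 ± 69.0 in controls (SD, n = 3 each), and relative to the family median it varied from 0.985 to 1.13, whereas Rpl30 by itself had the second largest relative SD of the 71 genes (0.262). The log2 fold change of Rpl30 with hydrogel, 0.55 (adjusted p = 0.312), was among the 3 largest there and thus holds this split. Reads of near-identical genes can be assigned to either, so the level of each is uncertain.

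**Figure D5:**
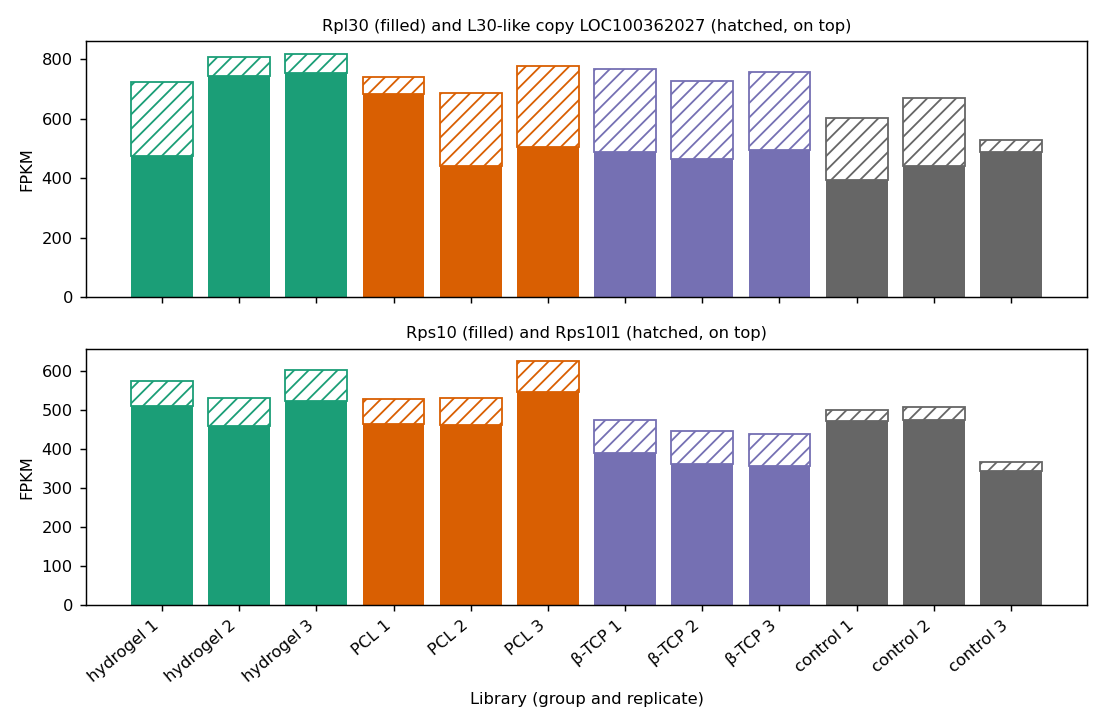
FPKM in each of the 12 libraries (vertical axis from 0) of Rpl30 with its L30-like copy stacked on top (upper panel) and of Rps10 with Rps10l1 on top (lower panel), colored by group. The L30-like part is small in 4 libraries from 3 groups and large in the other 8, whereas the Rps10l1 part is smallest in the control libraries and largest in the β-TCP libraries.

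Rps10, a small subunit protein mutated in Diamond-Blackfan anemia, and Rps10l1, its copy outside the naming rule, split along the groups instead. Rps10 was at 509, 459 and 524 FPKM with hydrogel, 464, 461 and 546 with PCL, 390, 362 and 356 with β-TCP and 470, 474 and 342 in controls. It was lower in the β-TCP libraries than in the hydrogel and PCL libraries without overlap, by -0.43 on the log2 scale in β-TCP against hydrogel (standard error 0.14, adjusted p = 0.0778, limma) and 0.40 in PCL against β-TCP (adjusted p = 0.153). Relative to the family median it was 0.532 to 0.560 with β-TCP and 0.616 to 0.779 in the other 9 libraries. Rps10l1 was at 65.7, 70.9 and 78.2 FPKM with hydrogel, 62.4, 69.9 and 78.5 with PCL, 83.7, 82.3 and 82.4 with β-TCP and 29.2, 33.5 and 24.2 in controls. It was the only gene of these outside the rule to pass an adjusted p of 0.05, with log2 fold changes over the control group of 1.28 with hydrogel (adjusted p = 0.0179), 1.26 with PCL (adjusted p = 0.00742) and 1.496 with β-TCP (adjusted p = 0.00205, all from limma). It held 11.4% to 13.4% of the sum of both genes with hydrogel, 11.8% to 13.2% with PCL, 17.7% to 18.8% with β-TCP and 5.84% to 6.60% in controls. The sum was 569 ± 36.5, 561 ± 55.4, 452 ± 18.8 and 458 ± 79.2 FPKM in the hydrogel, PCL, β-TCP and control groups (SD, n = 3 each), so that the β-TCP and control groups overlapped in it. Whether reads of Rps10 were counted for Rps10l1 was not tested.

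Rpl17, which lies at the mouth of the exit tunnel, had the largest relative SD of the 71 genes at 100 FPKM or more (0.272). It was at 907, 576 and 640 FPKM with hydrogel, 585, 546 and 599 with PCL, 811, 796 and 810 with β-TCP and 624, 669 and 477 in controls. Relative to the family median it was 1.16 to 1.25 in hydrogel replicate 1 and the β-TCP libraries, 0.942 to 1.06 in the control libraries and 0.759 to 0.833 in the other 5. Its log2 fold change in PCL against β-TCP was -0.48 (standard error 0.17, adjusted p = 0.163, limma). The only copy of L17 named in the table averaged 0.791 FPKM, so that no annotated copy of comparable level was found. Rps27a, which is made as a fusion with ubiquitin, was at 362, 524 and 435 FPKM with hydrogel, 436, 468 and 443 with PCL, 442, 492 and 527 with β-TCP and 440, 415 and 304 in controls, and hydrogel replicate 1 was below control replicates 1 and 2.

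For several proteins the symbol in the table carried almost no signal, while a copy of the same protein did. Rps9, which helps keep decoding accurate, was listed at 0 in 8 of the 12 libraries and had at most 3 fragments in the others. A gene described as 40S ribosomal protein S9 (LOC103689992), whose NCBI number RefSeq now gives to Rps9, was at 199, 155 and 237 FPKM with hydrogel, 129, 17.9 and 39.5 with PCL, 153, 136 and 95.9 with β-TCP and 33.1, 13.3 and 82.4 in controls. Its hydrogel libraries lay above all others, and its PCL and control libraries overlapped. Rpl8, a large subunit protein at the peptide-forming center, had at most 1.40 FPKM, and the gene described as 60S ribosomal protein L8 (LOC108348142) was at 23.5, 20.8 and 24.8 FPKM with hydrogel, 20.8, 20.2 and 26.1 with PCL, 20.7, 16.6 and 17.1 with β-TCP and 18.2, 188 and 248 in controls. Control replicates 2 and 3 stood far above the other 10 libraries in this copy, and another L8-like copy was at 16.6 to 26.5 FPKM throughout.

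Rps6, the small subunit protein phosphorylated by S6 kinase, was at 0.903, 1.03 and 1.41 FPKM with hydrogel, 1.05, 1.08 and 0.677 with PCL, 2.35, 1.15 and 1.28 with β-TCP and 0.900, 0.493 and 0.996 in controls, which rests on 6 to 32 fragments per library. Its S6-like copy (LOC100911372) was at 11.7 to 37.7 FPKM over the 12 libraries, still far under the family median. Rpl35a, another Diamond-Blackfan anemia gene, was at 0.531 to 4.64 FPKM, and its L35a-like copy (LOC100359498) was at 183, 198 and 219 FPKM with hydrogel, 211, 172 and 202 with PCL, 177, 188 and 183 with β-TCP and 186, 178 and 133 in controls. Rpl7a, a large subunit protein, was at 10.02 to 15.1 FPKM, and an L7a-like copy at 0.842 to 2.41 FPKM. Of 75 genes whose product names the protein, 50 had a total of 127 such copies in the table, 49 copies reached 1 FPKM, and the copies exceeded the gene itself for 4. These were Rps9, Rpl8, Rpl35a and Rps6, whereas the copy of Rpl7a was lower than Rpl7a itself. The low values do not show that the proteins were scarce. Whether reads of Rpl7a, Rps6 or Rpl8 were counted elsewhere was not tested. Rps6, Rpl35a and Rpl7a are nevertheless among the 79 genes tested, and the counts of higher genes at an unadjusted p under 0.05 include Rpl7a with hydrogel and PCL and Rps6 with β-TCP.

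Described by subunit, the medians against the control group were close. The 31 small subunit genes tested had a median log2 fold change of 0.37 with hydrogel, 0.30 with PCL and 0.25 with β-TCP, with 27, 26 and 15 higher at an unadjusted p under 0.05 and none lower. Of all genes 8.62%, 11.1% and 14.7% were higher in these 3 comparisons, the background for each list that follows. The 45 large subunit genes outside the stalk had medians of 0.35, 0.31 and 0.19, with 40, 34 and 15 higher and, with PCL, 1 lower. For the 18 genes mutated in Diamond-Blackfan anemia the medians were 0.37, 0.32 and 0.24, with 16, 16 and 9 higher. For the 8 whose proteins bind Mdm2, among them Rpl5 and Rpl11, they were 0.37, 0.31 and 0.31, with 7, 7 and 5 higher. Ribosomal proteins that the naming rule leaves out were at similar levels, and of 7 tested 5, 4 and 1 were higher with hydrogel, PCL and β-TCP at an unadjusted p under 0.05. Fau, which encodes S30 fused to a ubiquitin-like protein, was at 626, 681 and 688 FPKM with hydrogel, 611, 584 and 690 with PCL, 614, 591 and 594 with β-TCP and 563, 550 and 432 in controls. Rack1, a scaffold protein on the small subunit, was at 715 to 790, 644 to 801, 530 to 639 and 438 to 656 FPKM in the hydrogel, PCL, β-TCP and control groups, and its β-TCP and control ranges overlapped. The ribosomal protein paralogs Rpl22l1 (69.7 to 88.6 FPKM over the 12 libraries), Rpl7l1 (38.0 to 70.3) and Rpl36al (73.4 to 148) passed no adjusted p of 0.05 against the control group.

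The rest of the translation machinery had lower median changes than the ribosomal proteins, a difference that was not tested. Of 11 elongation factors and partners, 2 were higher with hydrogel, 4 with PCL and 1 with β-TCP at an unadjusted p under 0.05 (1 was lower with PCL), with medians of 0.24, 0.27 and 0.11. Eef1a1, which brings aminoacyl-tRNA to the ribosome and whose RNA has the same kind of start, was at 2218, 2311 and 2349 FPKM with hydrogel, 2275, 1900 and 2041 with PCL, 2237, 2183 and 2223 with β-TCP and 2047, 2183 and 1843 in controls, where the hydrogel libraries lay above all controls and the PCL libraries did not. Tpt1, whose RNA is likewise of this kind, was at 2207 to 2435, 2160 to 2643, 2072 to 2156 and 1775 to 2138 FPKM in the hydrogel, PCL, β-TCP and control groups. Of 31 initiation factors, 6, 8 and 1 were higher, with medians of 0.26, 0.22 and 0.06. With β-TCP, 1 of 11 and 1 of 31 were both smaller shares than the 14.7% of all genes. Pabpc1, the poly(A)-binding protein, was at 522 to 720, 547 to 880, 392 to 412 and 274 to 579 FPKM, and Eif4a1, the helicase of initiation, at 279 to 283, 293 to 327, 261 to 288 and 228 to 269 FPKM in these groups.

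Genes that build the ribosome separated the β-TCP group from the hydrogel group more than the ribosomal proteins did in count. Of 38 tested genes of ribosome biogenesis, 7 were higher with hydrogel, 3 with PCL and none with β-TCP against the control group at an unadjusted p under 0.05, with medians of 0.29, 0.20 and -0.04 (all genes higher 8.62%, 11.1% and 14.7%), and 1 was lower in each of the PCL and β-TCP groups, in β-TCP also at an adjusted p under 0.05. In β-TCP against hydrogel 16 of the 38 were lower and none higher (all genes 18.2% and 16.1%), with a median of -0.28, beside -0.14 for the ribosomal proteins, a difference between lists that was not tested. Npm1, an abundant nucleolar chaperone, was at 300, 324 and 402 FPKM with hydrogel, 316, 315 and 369 with PCL, 277, 252 and 237 with β-TCP and 260, 324 and 200 in controls. Ncl, nucleolin, was at 245 to 312, 259 to 312, 197 to 216 and 157 to 257 FPKM in the hydrogel, PCL, β-TCP and control groups. Both were lower in all β-TCP libraries than in all hydrogel libraries, with unadjusted p of 0.0395 and 0.0441 (limma). The dividing-cell sum was lower there too, at 145 to 276 FPKM with β-TCP and 431 to 865 with hydrogel, and its part was not tested.

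Of 12 genes of rRNA transcription, 6 were lower and 1 higher in β-TCP against hydrogel at an unadjusted p under 0.05, with a median of -0.34 (all genes 18.2% lower and 16.1% higher). The higher gene was Polr1d, a subunit shared by RNA polymerases I and III, at 81.2, 78.8 and 85.7 FPKM with β-TCP and 63.7, 67.4 and 65.1 with hydrogel, and against 57.3 to 62.5 in controls it rose with β-TCP by 0.43 (standard error 0.09, adjusted p = 0.0287, limma). Ubtf, the factor that opens the rRNA genes, was at 29.4, 25.5 and 26.9 FPKM with β-TCP and 36.9, 34.7 and 42.2 with hydrogel (log2 fold change -0.46, unadjusted p = 0.0248). Of 11 tested regulators of pyrimidine-tract messenger RNAs, none was higher or lower with hydrogel, and 1 was higher and 1 lower in each of the PCL and β-TCP groups (all genes 11.1% and 7.34% with PCL and 14.7% and 3.25% with β-TCP). Among them Rheb, the activator of mTOR, was at 49.8 to 57.3, 54.1 to 56.4, 56.6 to 57.8 and 49.6 to 52.7 FPKM in the hydrogel, PCL, β-TCP and control groups, and Eif4ebp1, an mTOR target that holds back initiation, at 42.7 to 53.5, 46.5 to 47.8, 50.4 to 61.5 and 42.0 to 50.7 FPKM.

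The ribosome of mitochondria, built from a separate set of proteins, had smaller medians. Of 72 tested genes, 20 were higher with hydrogel, 24 with PCL and 15 with β-TCP at an unadjusted p under 0.05 (all genes 8.62%, 11.1% and 14.7%) and none lower, with medians of 0.22, 0.21 and 0.13 against 0.35, 0.31 and 0.23 for the cytosolic ribosome. At an adjusted p under 0.05, 4 were higher with β-TCP (4.78% of all genes in either direction). Mrps6 was at 24.4, 26.7 and 25.4 FPKM with β-TCP, 11.6, 12.3 and 10.9 with hydrogel, 15.9, 15.4 and 11.4 with PCL and 13.9, 13.3 and 15.6 in controls. Its log2 fold change was 1.07 in β-TCP against hydrogel (standard error 0.13, adjusted p = 0.00681) and 0.80 against the control group (adjusted p = 0.0139, both from limma). The β-TCP libraries lay above the other 9.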

How the data were processed

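RNA of defect tissue was sequenced in 12 libraries. The deposited FPKM were made by the authors with cufflinks, after trimming in Trimmomatic and alignment in hisat2. The submitters' notes name the build Rnor_6.0 and also HTSeq, DESeq, Bowtie and StringTie. The paper and the labels name different kits and sequencers. A further 3 columns match no label and were not used. Whole fragments were recovered for 18678 of 18684 genes above 0 (within 0.0001). Genes with at least 1 FPKM in 3 libraries (12633) were fitted with limma 3.58.1 (R 4.3.3) on log2(FPKM + 1), which understates changes of low genes, with 4 group means, a trend, two-sided p and Benjamini-Hochberg adjustment. The test and the recovery were tested on simulated data. Tables used Python 3.11.15. Members, lists and tests were chosen with earlier results of these data known. Named genes are the adjusted calls, the 3 extreme genes per direction and comparison, the 5 highest and lowest by level, the P stalk and paralogs, and the 3 most variable, with up to 2 per outside list. Rps16, Rpl10, Rps7, Rpl5, Rpl11 and the copies were named after their values were seen. Alternatives were other pseudocounts, filters, scalings, weights, blocks and left-out libraries. Equal totals and limma-voom on recovered fragments were added after the data were seen. Some items that these rules name are not reported here.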

Additional observations from a re-analysis of the deposited data

How the results depend on the processing

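Changes in scaling, filter, fit or library left 473 of the counts and medians in place and moved 99, and 902 values of named genes kept direction and side of the threshold. Weights per library, whose estimates did not converge (0.0439 to 40.6), gave the highest adjusted counts: 63 with hydrogel, 63 with PCL and 49 with β-TCP against controls, 4 in PCL against hydrogel, 34 in β-TCP against hydrogel, 22 in PCL against β-TCP and 75 across groups, with 47 higher with β-TCP at an unadjusted p under 0.05 and combined-threshold counts of 2 with PCL, 1 with β-TCP and 1 in PCL against hydrogel. The adjusted β-TCP count was 0 without a filter, under median-of-ratios, quantile, hemoglobin-free, equal-total or equal family-median scaling, in the fit of only the groups compared, with the replicate block and with β-TCP replicates 2 and 3 averaged. Of β-TCP against hydrogel it was 3 under quantile normalization and 6 in the fit of only the groups compared, which gave 3 for PCL against β-TCP. Across groups it was 1 at a pseudocount of 10. For these adjusted and combined-threshold counts, here and below, and for all counts with weights, no share over all genes is given.

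Combined-threshold counts with PCL were 2 at a pseudocount of 0.1, and 0 at a pseudocount of 10, under quantile, equal family-median or equal-total scaling and with only the groups compared. They were 1 in PCL against hydrogel at a pseudocount of 10 and with only the groups compared, 0 in β-TCP against hydrogel with 1 FPKM asked in all 12 libraries and 2 under limma-voom, and 0 in PCL against β-TCP at a pseudocount of 10 or with 1 FPKM in all libraries. Medians with hydrogel were 0.2117 (median-of-ratios), 0.1707 (quantile) and 0.1608 (equal totals), with PCL 0.0919 (quantile), 0.4472 (hemoglobin-free) and 0.0550 (equal totals), and with β-TCP 0.0263 (quantile). In PCL against hydrogel the median was 0.0814 (median-of-ratios), in β-TCP against hydrogel -0.2889 (hemoglobin-free), and in PCL against β-TCP 0.2915 (hemoglobin-free) and -0.0625 (equal totals). Log2 fold changes of the summed FPKM were 0.2226 (median-of-ratios) and 0.1724 (equal totals) with hydrogel, against 0.3578 as deposited, and 0.4537 (hemoglobin-free) and 0.0663 (equal totals) with PCL, against 0.3126.

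Counts higher at an unadjusted p under 0.05 with hydrogel were 19 (median-of-ratios, 3.91% of all genes), 15 (quantile, 4.99%) and 20 (equal totals, 2.17%). They were also 1 (equal family median) and 33 (only the groups compared). With PCL they were 5 (quantile, 9.28% of all genes), 1 (equal family median), 18 (only the groups compared) and 3 (equal totals, 3.92%). With β-TCP they were 13 (median-of-ratios, 12.2% of all genes), 2 (quantile, 12.4%), 6 (hemoglobin-free, 11.7%) and 20 (equal totals, 9.28%). They were also 1 (equal family median), 19 (only the groups compared), 20 (replicate block) and 20 (β-TCP replicates 2 and 3 averaged). For the settings without a percentage, no share over all genes is given. Scaling to an equal family median removes a shared change by construction, and the cause of the other moves was not tested.

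Leaving out 1 library at a time gave combined-threshold counts of 0 to 1 with hydrogel, 0 to 2 with PCL, 0 to 1 with β-TCP, 0 to 2 in PCL against hydrogel, 1 to 2 in β-TCP against hydrogel and 0 to 2 in PCL against β-TCP. Adjusted counts were 0 to 4 with β-TCP, 0 to 10 in β-TCP against hydrogel, 0 to 3 in PCL against β-TCP and 0 to 5 across groups, and counts higher at an unadjusted p were 32 to 65 with PCL and 16 to 34 with β-TCP. The log2 fold change of Rpl39l with hydrogel (-0.1888) was 0.3879 with weights, 0.0825 without control replicate 3 and 0.3680 without hydrogel replicate 3 (lowest -0.6002, without hydrogel replicate 1), and in PCL against hydrogel (0.4514) it ran from -0.1054 without hydrogel replicate 3 to 0.8628 without hydrogel replicate 1. Rps27l with hydrogel (0.1437) was -0.2215 at an equal family median and -0.0448 at equal totals. Rpl3l with PCL (-0.2927) was 0.0814 under limma-voom and 0.0181, 0.6858 and 0.1758 without control replicate 1, control replicate 2 and PCL replicate 2, with -1.5819 as the lowest, without control replicate 3. Rpl35a with PCL (-0.1136) was 0.0011 at a pseudocount of 10 and 0.0181, 0.0233 and 0.2521 without control replicate 2, PCL replicate 2 and PCL replicate 3, with -0.6163 as the lowest, without PCL replicate 1.

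Deviations of libraries with the same replicate number had correlations of both signs (-0.612 to 0.469). With 3 libraries per group, these correlations cannot decide whether the numbers pair samples. With the replicate block 58, 46 and 20 genes were higher with hydrogel, PCL and β-TCP at an unadjusted p under 0.05, and 0 passed the adjustment. Genes with few fragments, such as Rps6 (6 to 32 per library), carry wide counting error.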
